A study of Mus musculus with 2 samples.

Results

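The lysyl oxidase genes *Lox*, *Loxl1*, *Loxl2*, *Loxl3* and *Loxl4* were taken by their symbols from the expression values of *Sox9*GFPHi chondrospheres, as 5 of 23628 genes. The choice used no measured value, though earlier results of these data were known, and all 5 genes were found. RNA was sequenced from 2 libraries of the same kind, named replicates 1 and 2. The cells came from the femoral heads of mouse pups at postnatal day 7 that were homozygous for a *Sox9* reporter allele, in which an IRES-EGFP cassette makes GFP follow the expression of *Sox9*, a transcription factor of chondrocytes. After digestion, live cells with high GFP and without CD31, Ter119 and CD45 (markers of endothelial, red blood and other blood cells) were sorted. They were plated as single cells in 1% methylcellulose with Maintenance Media, a chondrocyte medium with serum, FGF2, BMP4, IGF1, LIF and TGF-β1, at 5% oxygen. Each chondrosphere is a colony from a single cell. Both libraries share this allele and medium, and no other group was analysed here. The methods treat each pup as a biological replicate, but the labels do not say that the libraries came from separate pups, so the spread between them may be technical.

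Lysyl oxidases are secreted enzymes that need copper. They oxidise lysine and hydroxylysine residues of collagen and elastin to aldehydes, which then condense into covalent crosslinks between fibril molecules. In cartilage this joins collagens II, IX and XI into a stable network. *Lox* and *Loxl1* are made as proenzymes whose proline-rich front part is cut off by tolloid proteases outside the cell, whereas *Loxl2*, *Loxl3* and *Loxl4* carry cysteine-rich scavenger receptor domains in front of the same kind of catalytic domain.

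The feature that the enzymes share is a histidine cluster of the copper site, with the order histidine, any residue, histidine, any residue, histidine. The coding sequence of each gene held this pattern once. The coding stretches around it are shown for *Loxl1* and for the scavenger receptor members because they show what the catalytic domains have in common and where the letters around the histidines differ. The histidine codons are in capitals, the sequences read 5′ to 3′ in the sense of the gene, and coordinates are of GRCm38. Each stretch crosses an exon junction, so its span in the genome holds an intron.
Loxl1: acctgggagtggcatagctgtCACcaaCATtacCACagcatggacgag
Loxl2: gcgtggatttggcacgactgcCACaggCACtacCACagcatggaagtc
Loxl3: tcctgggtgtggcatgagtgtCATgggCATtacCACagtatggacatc
Loxl4: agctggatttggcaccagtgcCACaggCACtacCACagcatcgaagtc
The *Loxl1* stretch lies at chr9:58293708-58294384 on the minus strand, in exons 3 and 4 of 7. The *Loxl2* stretch lies at chr14:69682313-69689049 on the plus strand, in exons 10 and 11 of 14. The *Loxl3* stretch lies at chr6:83049992-83050137 on the plus strand, also in exons 10 and 11 of 14. The *Loxl4* stretch lies at chr19:42598795-42599902 on the minus strand, in exons 11 and 12 of 15.

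Over these 48 bases, *Lox* and *Loxl1* differed at 3 bases and encoded the same residue at 15 of 16 positions. *Loxl2* and *Loxl4* differed at 6 bases and shared 13 of 16 residues. Every other pair differed at 13 to 17 bases and shared 9 to 12 residues. *Loxl3* was no closer here to *Loxl2* and *Loxl4* (10 shared residues each) than to *Lox* (12) or *Loxl1* (11). The whole proteins fell into the proenzyme and the scavenger receptor kind. *Lox* has 411 residues and *Loxl1* 607, with 12 cysteines each, 9.49% and 10.2% proline, and 121 residues after the histidine cluster in both. *Loxl2*, *Loxl3* and *Loxl4* have 776, 754 and 757 residues, with 36, 39 and 35 cysteines, 4.25%, 3.58% and 4.49% proline, and 144, 142 and 141 residues after the cluster. In local alignments, the members with scavenger receptor domains were 55% to 57.2% identical over 719 to 747 aligned columns. *Lox* and *Loxl1* were 52.8% identical over 362 columns, and pairs across the subgroups 48.8% to 54.0% over 201 to 217 columns, which is about the length of the catalytic domain.

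In the chondrospheres, *Lox*, *Loxl2* and *Loxl3* transcripts were abundant, and *Loxl4* and *Loxl1* were present at much lower levels. Levels are in counts-per-million (CPM), the reads of a gene scaled to a common total over all genes, and are given for replicate 1 first. *Lox*, the founding member, had 1839 and 2505 CPM, or 2172 ± 471 CPM (mean ± SD, n = 2), which ranked it 32 of 23628 genes. *Loxl2*, which is known to act on collagen IV and fibrillar collagens, had 1368 and 2164 CPM, or 1766 ± 563 CPM, at rank 37. *Loxl3*, whose loss in mice causes cleft palate and spinal defects, had 999 and 1346 CPM, or 1172 ± 246 CPM, at rank 60. These 3 genes each had a higher CPM in replicate 2 than in replicate 1, and none of their values came within the range of the other members.

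*Loxl4*, another member with scavenger receptor domains, had 117 and 132 CPM, or 125 ± 11.1 CPM, at rank 858. *Loxl1*, which is best known for the renewal of elastic fibres, had 54.1 and 59.4 CPM, or 56.8 ± 3.74 CPM, at rank 2150. Both genes lay well above the median of 16.2 CPM over the 12631 genes whose mean reached 1 CPM. Depth set no limit for any member, since the reads implied for *Loxl1*, the lowest, were about 2343 in replicate 1 and 2506 in replicate 2. The family as a whole took 4377 and 6207 CPM, which is 0.438% and 0.621% of all reads on genes.

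**Figure D1:**
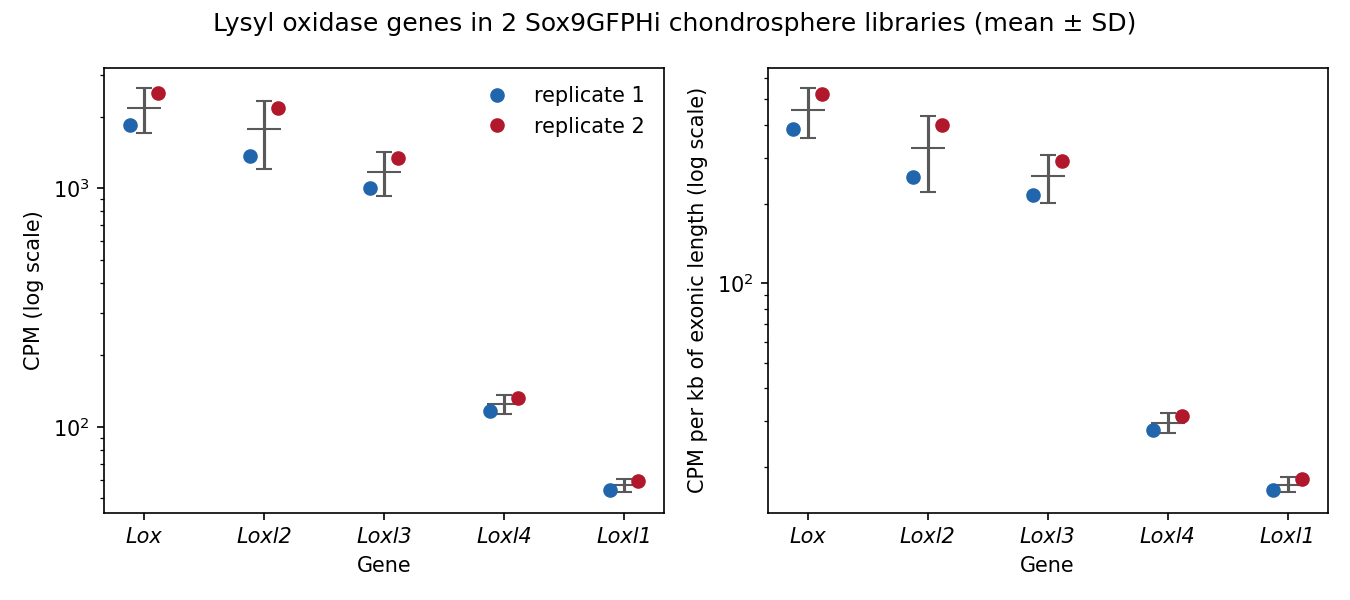
Level of each lysyl oxidase gene in the 2 libraries, as CPM on the left and as CPM per kb of exonic length on the right, both on log axes; points are libraries, long bars the mean and short bars the SD (n = 2). *Lox*, *Loxl2* and *Loxl3* lie at 999 to 2505 CPM and *Loxl4* and *Loxl1* at 54.1 to 132 CPM, with no overlap.

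To compare genes with each other, CPM was divided by the exonic length in kb. On this scale *Lox* had 385 and 524 CPM per kb, or 455 ± 98.6. *Loxl2* had 253 and 400 CPM per kb, or 327 ± 104. *Loxl3* had 217 and 292 CPM per kb, or 255 ± 53.3. The range of *Loxl2* overlapped those of *Lox* and *Loxl3*, which did not overlap each other, and within each library the order was *Lox*, *Loxl2*, *Loxl3*. *Loxl4* followed with 27.7 and 31.4 CPM per kb, or 29.6 ± 2.63, and *Loxl1* was last with 16.4 and 18 CPM per kb, or 17.2 ± 1.13.

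Ratios taken within a library do not depend on its scaling. The log2 ratio of *Lox* to *Loxl2* per kb was 0.60 in replicate 1 and 0.39 in replicate 2, or 0.50 ± 0.15 (SD, n = 2), a 1.41-fold difference. That of *Loxl2* to *Loxl3* was 0.22 and 0.45, or 0.34 ± 0.16, a 1.26-fold difference. Both steps were small, and each was larger than its own spread between libraries. The step from *Loxl3* to *Loxl4* was the large one, at 3.09 ± 0.18 or 8.54-fold. *Loxl4* stood above *Loxl1* by 0.78 ± 0.03 or 1.72-fold. From the first to the last member, *Lox* to *Loxl1*, the difference was 4.71 ± 0.22 on the log2 scale, or 26.1-fold. With 2 libraries of the same kind there are no groups to compare and no test was run.

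*Lox* thus made up 42.1% ± 0.995 of the summed level of the family per kb, *Loxl2* 29.9% ± 2.44 and *Loxl3* 23.6% ± 0.739. *Loxl4* made up 2.78% ± 0.424 and *Loxl1* 1.62% ± 0.285. Together *Lox*, *Loxl2* and *Loxl3* held 95.1% of the sum in replicate 1 and 96.1% in replicate 2. Their summed level per kb was 19.4 and 24.6 times that of *Loxl4* and *Loxl1*. The abundant and the scarce members were each drawn from both structural subgroups, since *Lox* and *Loxl1* are of the proenzyme kind and *Loxl2*, *Loxl3* and *Loxl4* of the scavenger receptor kind. The closest pair in the stretches printed above, *Loxl2* and *Loxl4*, differed 10.8-fold per kb, with a log2 ratio of 3.43 ± 0.34.

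The first place of *Lox* depended on how the reads of *Loxl2* are assigned. *Lox* is at chr18:52516067-52529867 on the minus strand, with 4778 exonic bases, and none of the 50-base stretches of its longest coding transcript, 50 bases being the read length, occurred in another annotated gene. The same held for *Loxl1*, at chr9:58287738-58313186 on the minus strand with 3297 exonic bases, and for *Loxl4*, at chr19:42593982-42612813 on the minus strand with 4213 exonic bases. *Loxl2* is at chr14:69609068-69695834 on the plus strand, with 5405 exonic bases. Of its 5267 stretches of 50 bases, 2411 (45.8%) also occurred in other genes, 2115 of them in its coding part. Most of these, 2299 or 43.6% of all its stretches, were found in *Gm21451*, an unprocessed pseudogene at chr14:69390854-69480287 on the same strand. *Gm21451* was listed at 1.09 and 2.29 CPM, so few reads were listed under this copy. Whether the shared reads were counted for *Loxl2* or left out cannot be read from this level.

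*Loxl3*, at chr6:83034173-83052562 on the plus strand with 4603 exonic bases, shared 401 of 4049 stretches (9.90%) with *Htra2*. *Htra2* encodes a mitochondrial protease, lies on the opposite strand, overlaps the 3′ end of *Loxl3* by 535 exonic bases and was listed at 28.0 and 24.8 CPM. The libraries were stranded, but the strand setting of the counting is not given in the sources used here. No stretch was shared between members of the family.

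If CPM was divided by the number of 50-base positions that occur in no other gene, *Loxl2* moved to 618 ± 197 CPM per kb of such positions and *Lox* to 463 ± 100. The log2 ratio of *Lox* to *Loxl2* then reversed to -0.40, and the shares became 42.2% ± 2.85 for *Loxl2*, 32.0% ± 1.21 for *Lox* and 22.2% ± 1.01 for *Loxl3*. This is the value that would hold if shared reads had not been counted for *Loxl2*, and how the counting divided them was not tested. Under the mean length of the coding transcripts *Lox* stayed above *Loxl2*, by 0.18 ± 0.15. In each of the 5 choices of length, *Lox*, *Loxl2* and *Loxl3* came before *Loxl4*, and *Loxl4* before *Loxl1*. The plot of shares by choice of length shows that only the order of *Lox* and *Loxl2* turned.

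**Figure D2:**
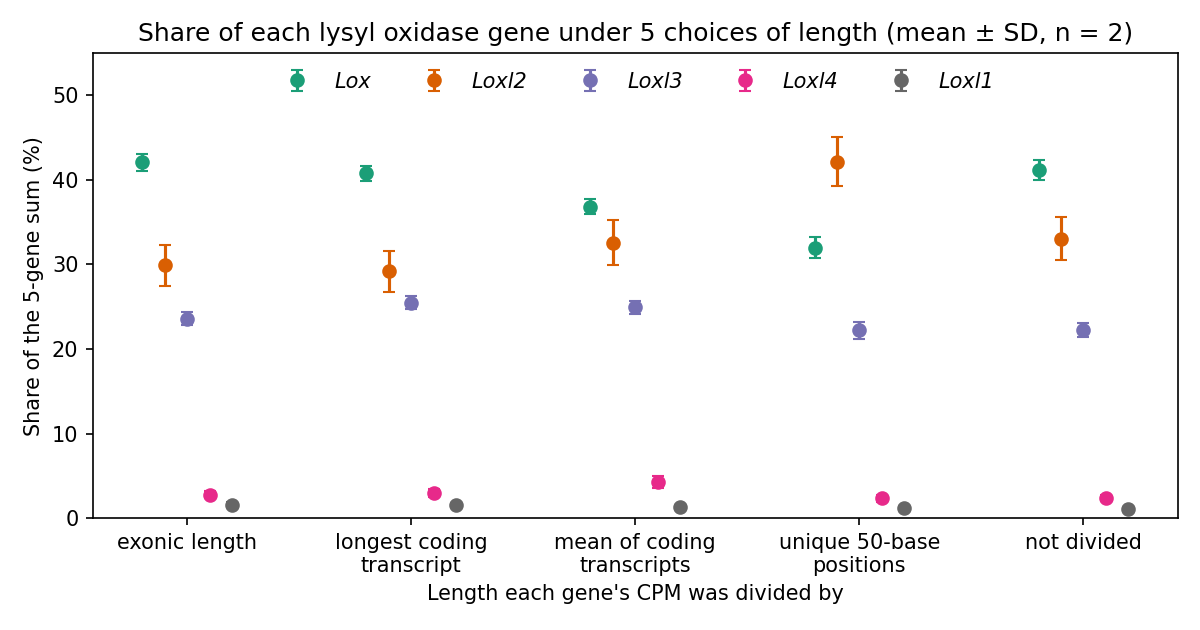
Share of each gene in the summed level of the lysyl oxidases, in percent, under 5 choices of the length that CPM was divided by; points are means of the 2 libraries and bars the SD (n = 2). *Lox* is first with 42.1% per exonic length, and *Loxl2* is first with 42.2% per unique 50-base position.

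Among the other crosslinking enzymes examined, *F13a1* had a level close to that of *Lox* per kb of exonic length. Under the other choices of length *F13a1* stood above *Lox*. It encodes the A subunit of coagulation factor XIII, a transglutaminase that links glutamine to lysine side chains and is known in chondrocytes. *F13a1* had 2472 and 4040 CPM, or 367 and 599 CPM per kb, with a mean of 483 ± 164 per kb. The log2 ratio of *F13a1* to *Lox* per kb of exonic length was -0.07 in replicate 1 and 0.19 in replicate 2, or 0.06 ± 0.19, so these genes were not separated. Per length of the longest coding transcript *F13a1* stood above *Lox* by 0.82, and undivided by 0.56. The mean ratio was above 0 under every length tried, and the choice of length decided only whether the genes were separated.

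Of 9 genes for other crosslinking enzymes, 7 were listed and 3 had at least 1 CPM in both libraries. Besides *F13a1* these were *Pxdn*, whose product peroxidasin forms sulfilimine bonds in collagen IV, with 194 and 304 CPM, and the broadly expressed transglutaminase *Tgm2*, with 58.2 and 73.1 CPM. Per kb, *Lox* was above *Pxdn* by 4.16 ± 0.14 on the log2 scale (17.8-fold) and above *Tgm2* by 4.99 ± 0.08 (31.8-fold), or 12.3- and 25-fold with the longest coding transcripts. *Tgm1* and *Tgm3*, transglutaminases of the epidermis, were at 0 in both libraries. A count of 0 allows up to 3 reads, or 0.0693 and 0.0712 CPM in the libraries. The copper amine oxidases outside the lysyl oxidase family were low, with *Aoc2* at 1.13 and 1.33 CPM and *Aoc3* at 0.0462 and 0 CPM, and *Aoc1* was not listed.

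The protease genes that prepare the enzymes had lower levels than *Lox*. Of 7 processing protease genes, 6 had at least 1 CPM in both libraries. *Bmp1*, which cuts the proenzyme of *Lox* and the propeptides of fibrillar procollagens, had 110 and 185 CPM. Per kb *Lox* stood above *Bmp1* by 4.80 ± 0.21 on the log2 scale, or 27.9-fold, and with the longest coding transcripts 11.7-fold. The related tolloid gene *Tll1* had 8.06 and 42.0 CPM, and *Tll2* was near 0 with 0.0462 and 0 CPM. The list was led in CPM by *Furin*, a proprotein convertase, with 163 and 184 CPM, and *Pcsk6*, another convertase, had 107 and 163 CPM. *Lox* was above *Furin* 23.8-fold per exonic kb and 11.3-fold with the longest coding transcripts, and above *Pcsk6* 17.6- and 15.1-fold. The order of *Pcsk6* and *Bmp1* turned with the length, with a log2 ratio of 0.66 per exonic kb and -0.37 with the longest coding transcripts. *Adamts2*, a procollagen N-proteinase, had 8.36 and 1.97 CPM, and *Adamts14*, of the same kind, 2.98 and 6.33 CPM.

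All 7 matrix partners of the enzymes were expressed. *Fn1*, which encodes fibronectin, a scaffold for *Lox* activation, was the highest with 183979 and 161946 CPM, and *Fbln5*, an elastic fibre protein that binds *Loxl1*, the lowest with 63.7 and 105 CPM. *Thbs1* (thrombospondin 1, an adhesive matrix glycoprotein) had 4022 and 5404 CPM, and *Fmod* (fibromodulin, a collagen-binding proteoglycan that also binds *Lox*) 3462 and 2934 CPM. *Efemp2* (fibulin 4, which brings *Lox* to tropoelastin) had 202 and 290 CPM and *Pcolce*, an enhancer of *Bmp1* activity on procollagen, 230 and 278 CPM. *Postn*, whose product periostin brings *Bmp1* to the matrix, had 179 and 107 CPM.

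Copper reaches secreted enzymes through uptake, a chaperone and a pump into the Golgi. *Slc31a1*, the main copper importer, had 53.1 and 59.9 CPM, *Atox1*, the chaperone, 34.6 and 27.4 CPM, and *Atp7a*, the pump that loads lysyl oxidases, 14.7 and 18.8 CPM. *Slc31a2*, a related transporter, had 7.42 and 6.74 CPM. *Atp7b*, the pump best known from liver, was near 0 with 0.231 and 0.0474 CPM. Thus 4 of 5 copper supply genes had at least 1 CPM in both libraries.

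All 14 collagen and elastin genes examined as substrates were expressed. *Col2a1*, the main fibrillar collagen of cartilage, was the highest, with 148953 and 100682 CPM, and exceeded *Lox* per kb 41.9-fold in replicate 1 and 20.8-fold in replicate 2. With the longest coding transcripts this was 75.2- and 37.3-fold. Its fibril partners *Col11a1* and *Col9a1* had 9755 and 7347 CPM and 1881 and 1087 CPM. *Col1a1*, a chain of the bone and tendon collagen I, was below *Lox* per kb, by 1.84 ± 1.02 on the log2 scale. Its partner chain *Col1a2* had 2714 and 2620 CPM, and its place turned with the length, since the log2 ratio of *Lox* to *Col1a2* was 1.07 per exonic kb, -0.14 with the longest and -0.88 with the mean length of coding transcripts. *Eln*, which encodes tropoelastin, had 205 and 66.7 CPM, and *Col4a1*, of basement membranes, was the lowest with 54.9 and 69.9 CPM.

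The hydroxylation of lysine decides which kind of crosslink the aldehydes form. All 8 genes of this list were expressed. *Plod2*, the hydroxylase of telopeptide lysines, was the highest with 972 and 877 CPM, and its partner *Fkbp10* had 590 and 712 CPM. *Plod1*, which acts on helical lysines, had 308 and 394 CPM, and *Plod3*, which also adds sugars, 276 and 335 CPM. Per kb *Plod2* was above *Plod1* by 1.73 ± 0.36 on the log2 scale, but with the mean length of coding transcripts by 0.30 ± 0.36, which does not separate them. *Lox* was above *Plod2* per kb by 1.39 ± 0.42. *P3h3*, a prolyl hydroxylase family member that works in a complex with *Plod1*, was the lowest with 126 and 124 CPM, while *P3h4*, another part of that complex, had 302 and 312 CPM. *Ppib*, the isomerase cyclophilin B, had 238 and 288 CPM, and *Colgalt1*, which adds galactose to hydroxylysine, 235 and 291 CPM.

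**Figure D3:**
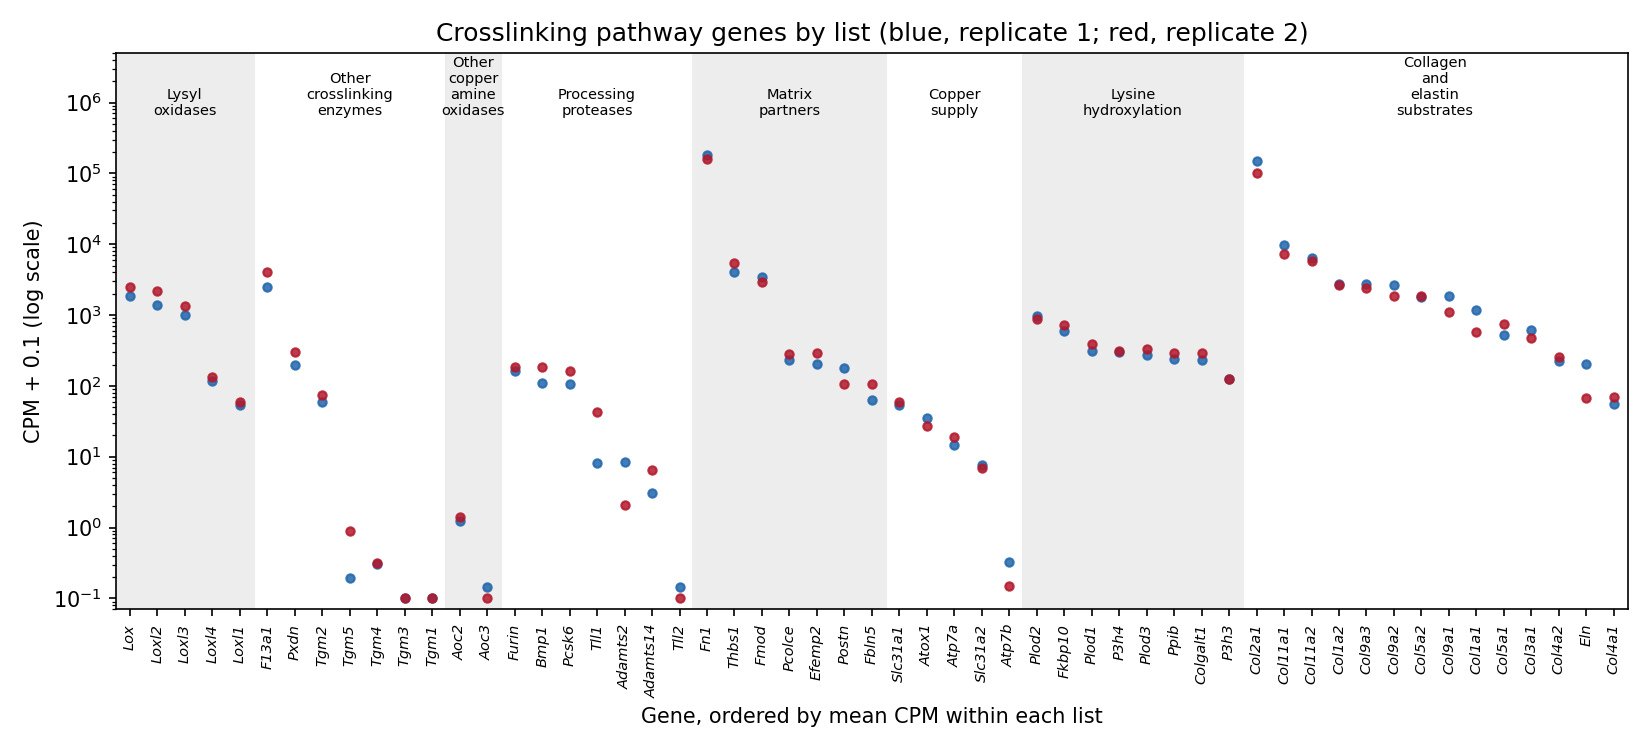
CPM plus 0.1 on a log axis for the lysyl oxidases and the listed genes of 7 related lists, ordered by mean CPM within each list; blue points are replicate 1 and red points replicate 2. Levels are not divided by length, and the points at 0.1 are genes at 0 CPM.

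Between the libraries, the members moved less than 2-fold. The log2 ratio of replicate 2 to replicate 1, with a pseudocount of 0.1 CPM, had a median of 0.30 over the 12631 genes that averaged 1 CPM or more, and this shift was removed. The 10 highest genes took 43.4% of all reads in replicate 1 and 34.7% in replicate 2. After centring, *Lox* was at 0.14, *Loxl2* at 0.36, *Loxl3* at 0.13, *Loxl4* at -0.12 and *Loxl1* at -0.17. The signs of *Loxl4* and *Loxl1* turned with the scaling, since their uncentred ratios were 0.18 and 0.13, while *Lox* (0.45), *Loxl2* (0.66) and *Loxl3* (0.43) were positive on both scales. Of the 5 genes, 0 were past 2-fold, against 938 genes higher (7.43%) and 766 lower (6.06%) of all genes, or 13.5% in either direction. With only 5 genes, a count of 0 cannot be told apart from that share. *Loxl2* had the largest ratio of the family in size, and 56.1% of all genes had a smaller one.

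The collagen and elastin genes stood elsewhere on this scale. Of the 14 genes, 12 had a negative centred ratio, with a median of -0.59, against 0 for all genes by construction. *Col1a1*, *Col9a1* and *Eln* were past 2-fold lower in replicate 2, at -1.30, -1.09 and -1.93, and 0 genes of the list were past 2-fold higher. Without centring 10 of the 14 ratios were negative, with a median of -0.29, and only *Eln*, at -1.62, was past 2-fold, while *Col1a1* was at -0.999 and *Col9a1* at -0.79. On that scale 11.4% of all genes were past 2-fold higher and 3.71% lower. Their summed level was 179684 and 125899 CPM. The log2 ratio of *Col2a1* to *Lox* per kb was 5.39 in replicate 1 and 4.38 in replicate 2. In bulk libraries, fewer cells of a kind and less RNA per cell cannot be told apart.

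**Figure D4:**
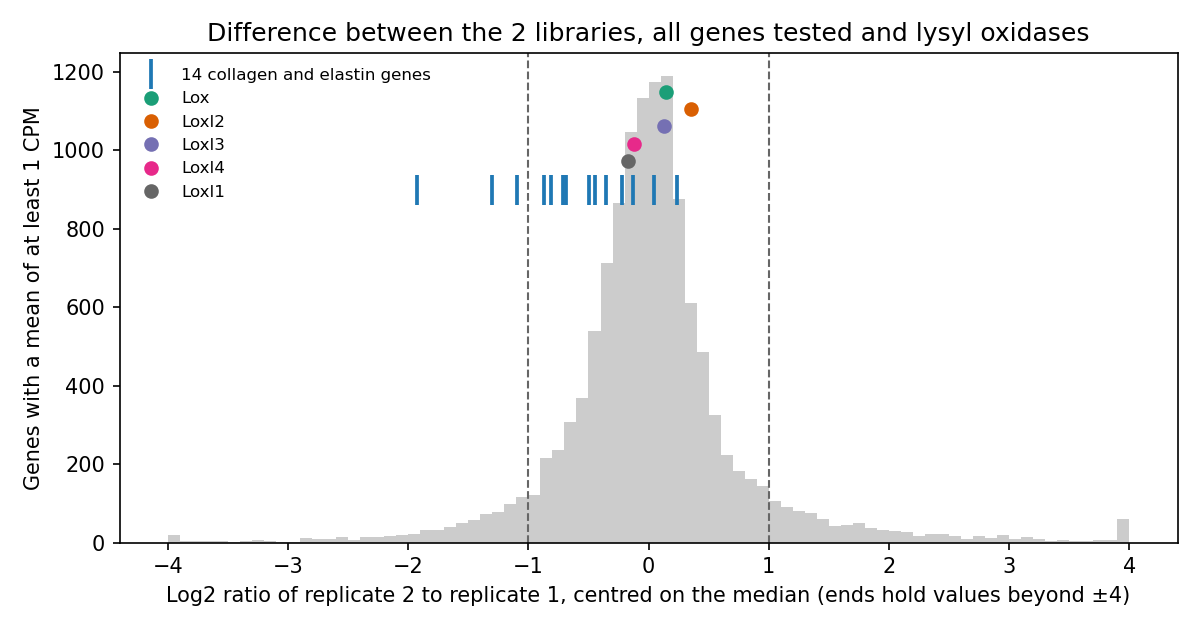
Histogram of the centred log2 ratio of replicate 2 to replicate 1 over 12631 genes (grey), with the lysyl oxidases as points and the 14 collagen and elastin genes as ticks, both at heights without meaning; dashed lines mark 2-fold. The members lie from -0.17 to 0.36, and 12 of the 14 ticks lie below 0.

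In the other lists, single members moved past 2-fold. Among the processing proteases *Tll1* was higher in replicate 2, at 2.06, and *Adamts2* lower, at -2.34, with a median of 0.37 over the 6 genes tested. Among the matrix partners *Postn* was lower, at -1.04, with a median of -0.03. The copper supply, lysine hydroxylation and other crosslinking lists had 0 genes past 2-fold, with medians of -0.29, -0.03 and 0.35 over 4, 8 and 3 genes tested. Without centring *Postn*, at -0.74, was no longer past 2-fold, and *Adamts14*, at 1.06, was past it.

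Hypoxia and TGF-β are known to raise lysyl oxidase expression, and the culture had low oxygen and added TGF-β1. Of 12 genes that respond to them or carry the response, 10 averaged 1 CPM or more. The highest was *Ccn2*, a matrix protein gene induced by TGF-β, with 3732 and 3209 CPM (centred ratio -0.52). The lowest was *Car9*, a hypoxia-induced carbonic anhydrase, with 0.0693 and 0.285 CPM. *Smad7* (15.6 and 53.6 CPM, centred ratio 1.47) and *Tgfbi* (32.9 and 101 CPM, 1.31), which are induced by TGF-β, were past 2-fold higher in replicate 2. *Slc2a1*, a glucose transporter gene induced by hypoxia (272 and 133 CPM, -1.34), and *Epas1*, which encodes HIF-2α (6.70 and 3.77 CPM, -1.12), were past 2-fold lower. Without centring *Epas1*, at -0.81, was not. As a set the list had no common direction, since 5 of the 10 centred ratios were positive and 5 negative. Their median was -0.15, and 0.15 without centring. Of the 5 lysyl oxidase genes, 0 were past 2-fold in the same pair. With so few genes this cannot be told apart from the 13.5% of all genes tested. Whether the family followed either signal was not tested. There was no culture without TGF-β1 or at higher oxygen to compare with.

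The marker lists give the cells behind these values. All 8 chondrocyte markers had at least 1 CPM in both libraries, with *Acan* at 14170 and 12002 CPM, and their summed level was 187245 and 129663 CPM. Of these, *Matn3* (741 and 53.1 CPM, centred ratio -4.10) and *Col9a1* were past 2-fold lower in replicate 2, *Col9a1* only with centring. Of 8 hypertrophic markers 6 were present in both libraries, and their sum was 6407 and 22735 CPM, most of it *Spp1*, with *Spp1*, *Mmp13* and *Alpl* past 2-fold higher in replicate 2. The 6 osteoblast markers summed to 3.67 and 49.8 CPM, most of it *Dmp1* in replicate 2, with *Sost* at 0. The 8 fibroblast markers summed to 1376 and 511 CPM, nearly all of it *Dcn* and *Lum*, which cartilage also expresses, with *Pi16* and *Clec3b* at 0. *Dcn* and *Lum* were past 2-fold lower in replicate 2, at -2.02 and -1.35. Of the endothelial markers 0 of 5 reached 1 CPM, of the blood markers 1 of 5 (*Cd68* at 2.56 and 2.40 CPM) and of the muscle markers 1 of 5 (*Acta2* at 53.4 and 93.0 CPM). The libraries thus matched their chondrocyte label by these markers, but hypertrophic markers were also expressed, and the libraries differed from each other in several lists. *Col10a1*, a defining hypertrophic marker, had 1752 and 2109 CPM, at rank 34, with a centred ratio of -0.04. The part of the markers that moved in the family's values was not tested.

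The genes nearest to each member over the pair of log2(CPM + 0.1) values were read from the whole table. For *Lox* they were *Col10a1*, the collagen X gene, *Sdc3*, a syndecan, and *Serpinh1*, a collagen chaperone, at distances of 0.26, 0.29 and 0.40. For *Loxl2* they were *P4hb*, a subunit of prolyl hydroxylase, *Eef2*, an elongation factor, and *Sdc3*, at 0.26, 0.29 and 0.34. For *Loxl3* they were *Fkbp9* and *Calr*, which encode endoplasmic reticulum proteins, and the ribosomal protein gene *Rplp0*, at 0.18 to 0.20. *Loxl4* was nearest to *Rbm39*, *Vat1* and *Ikbip*, at 0.01 to 0.03, and *Loxl1* to *Kmt5a*, *Cog6* and *Raver1*, at 0.01 to 0.02. With 2 values per gene this is nearness in level only, and smaller distances are found where more genes share a level.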

How the data were processed

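Poly(A)-selected, stranded libraries were sequenced as single-end reads of 50 bases. Per the submitters' processing notes and the methods, the authors aligned reads with STAR 2.7.3a to GRCm38 (GENCODE M25), quantified genes with Partek E/M in Partek Flow 10.0.21.0801 and deposited counts-per-million (CPM), 1 column per library. How reads shared by several genes were divided, and the strand setting, are not given in the sources used here. Each deposited CPM column carried an offset of 0.0001 per gene, which was subtracted. The steps between low values imply a depth on genes of about 43300000 (replicate 1) and 42200000 reads (replicate 2). Only 63.6% and 62.6% of low values were whole reads (within 0.02 read), so no count model was used.

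Members were matched by symbol. Lengths, coordinates and transcript sequences came from GENCODE M21 on GRCm38, an earlier release than the authors', in which 22967 symbols (97.2%) matched 1 gene. Proteins were translated from the longest coding transcript and aligned locally (BLOSUM62). Levels were given per library with mean and SD. Log2 ratios between libraries used a pseudocount of 0.1 CPM, genes that averaged 1 CPM or more, and centring on their median; genes past 2-fold were counted. Gene ratios within libraries were called separated where the mean exceeded the SD. An exact permutation test over 2 libraries cannot reach significance, so no test was run. The calculation was tested on simulated data.

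The members and the 16 gene lists (115 entries) were chosen with earlier results of these data known. Named were the members and the 3 genes nearest each member by Euclidean distance. From each list other than the cell type markers, the highest, the lowest and every gene past 2-fold were named. The marker lists were given by counts, sums and some of their genes. Other list genes, such as *Fmod* or *Plod1*, were named for their role after values were seen. The values of 1 list gene are not reported here. Alternatives were other lengths, pseudocounts, filters, centrings, totals and each library alone. The division by unique 50-base positions, and the alternatives for *F13a1* against *Lox*, were added after seeing the data. Software was matplotlib 3.10.9, biopython 1.88, numpy 2.4.6, scipy 1.17.1 and pandas 2.3.3 under Python 3.11.15.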

Additional observations from a re-analysis of the deposited data

How the results depend on the processing

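Of 104 alternative values for 19 results, 60 stayed within a set margin, 43 moved and 1 reversed. In any of them, 0 members were past 2-fold between the libraries. For levels, shares and gene ratios the margin was the SD, and for counts of genes it was a set fold. A value from 1 library alone always lies within the SD of 2, so those alternatives could not move. The value that reversed was the log2 ratio of *Lox* to *Loxl2*, at -0.40 per unique 50-base position, because dividing by fewer positions raised *Loxl2*. This ratio was 0.18 with the mean length of coding transcripts and 0.32 undivided. The share of *Lox* was 40.8% with the longest coding transcript, 36.8% with the mean length and 32.0% with unique positions. *Loxl2* to *Loxl3* was 0.57 undivided and 0.92 with unique positions, and *Loxl3* to *Loxl4* 2.55 with the mean length. *Loxl4* to *Loxl1* was 0.95 with the longest coding transcript, 1.65 with the mean length, 1.13 undivided and 0.95 with unique positions. *F13a1* to *Lox* was 0.82, 0.80, 0.56 and 0.82 in the same order. When the total excluded the 10 highest genes, *Lox* was at 3540, *Loxl1* at 93.3, *Loxl2* at 2864, *Loxl3* at 1912 and *Loxl4* at 204 CPM. The library ratios without centring were 0.45 (*Lox*), 0.13 (*Loxl1*), 0.66 (*Loxl2*), 0.43 (*Loxl3*) and 0.18 (*Loxl4*), which turned the sign of *Loxl1* and *Loxl4*. With a pseudocount of 1, *Lox* was at 0.16, *Loxl2* at 0.38 and *Loxl3* at 0.15. With a minimum of 10 CPM they were at 0.12, 0.34 and 0.11, and with no minimum at 0.19, 0.40 and 0.17. Genes past 2-fold numbered 1435 higher and 468 lower without centring, 296 higher and 265 lower (561 in all) at a minimum of 10 CPM, and 2012 higher and 2378 lower (4390 in all) with no minimum. Moves of library ratios were judged against counting error alone. With 2 libraries of a single kind, each SD rests on 1 difference, and *Loxl2*'s level is limited by reads it shares with *Gm21451* rather than by depth.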
